A study of Drosophila melanogaster with 90 samples.

Results

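The genes described here are 10 genes of the insulin pathway of Drosophila melanogaster: the insulin-like peptide genes Ilp2, Ilp3, Ilp5, Ilp6 and Ilp7, the insulin receptor gene InR, chico, foxo, ImpL2 and Thor. They were taken by name from a table of read counts with 14514 usable gene rows, and all 10 were found. The RNA came from whole adult females of 5 inbred lines, named for where each was collected: Zimbabwe 184, Tasmania 01, Netherlands 01, Ithaca 16 and Beijing 04. The Zimbabwe line was collected in Africa but was described by the submitters as a recent migrant. Each place is represented by 1 inbred line, so a difference between lines is a difference between these lines and not between populations. Females aged 3 to 5 days were either kept as virgins or mated once with a male of 1 of the same 5 lines, and freezing followed 5 to 6 h after the start of mating, with virgins of the same age frozen in parallel. This gave 25 crosses, written with the female line first, and 5 groups of virgins. Flies were kept at 25 °C with 12 h of light, RNA was pooled from 5 to 10 females per library, and the 3 replicates planned per group came from separate bottles. The table held 15 virgin and 74 mated libraries, with 2 libraries for Ithaca x Zimbabwe.

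In flies, insulin-like peptides are secreted into the haemolymph and most bind the receptor tyrosine kinase InR. The activated receptor recruits the adaptor Chico, which passes the signal to phosphoinositide 3-kinase and Akt. Akt keeps the transcription factor Foxo out of the nucleus, and when signalling is low Foxo enters the nucleus and activates genes such as Thor and InR itself. The peptides differ in where they are made: Ilp2, Ilp3 and Ilp5 come mainly from the median neurosecretory cells of the brain, called insulin-producing cells, Ilp6 comes mainly from the fat body, and Ilp7 comes from neurons of the ventral nerve cord, some of which reach the female reproductive tract. Insulin signalling is known to set the rate of egg production in females.

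Total counts per library ran from 4407704 to 38799730, with a median of 14081355. Markers of the female germline summed to between 1170 and 2580 CPM (counts scaled to a library of 1000000, with sizes adjusted by the trimmed mean of M-values) in every library. Markers of testis and sperm summed to at most 8.87 CPM in most libraries, to 10.7 CPM in Netherlands virgin replicate 1, and to between 15.3 and 1150 CPM in 6 mated libraries, which were Ithaca x Zimbabwe 1, Netherlands x Beijing 2, Ithaca x Ithaca 3, Ithaca x Tasmania 3, Beijing x Zimbabwe 1 and Ithaca x Netherlands 1. From genes that virgins of 1 line expressed and virgins of another did not, 5 mated libraries were estimated to hold over 10% of other-line transcripts. The highest share, 92.6%, was that of the library labelled Netherlands x Ithaca replicate 2. It was of the Ithaca kind and rested on 2 genes. No pair of lines had more than 8 such genes, and pairs with fewer than 2 were not screened. Beijing females were thus screened for Zimbabwe transcripts alone, and Tasmania females not for those of Ithaca or Zimbabwe. In each library the slope of log2 expression on log2 exon length, here called the length slope, measures whether long transcripts were counted relatively more or less than in the average library. It ran from -0.508 to 0.188.

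All 10 genes had enough counts to be tested, among 12045 genes in all. Per kilobase of exon, the mean level over the 89 libraries was highest for Thor, which encodes the binding protein that represses the translation factor eIF4E, at 423 CPM per kilobase. Next came ImpL2, a secreted protein that binds insulin-like peptides and keeps them from the receptor, at 37.3 CPM per kilobase, then foxo at 24.6 and chico at 12.4 CPM per kilobase. The peptide genes were low in whole females: 8.60 CPM per kilobase for Ilp6, 7.95 for Ilp2, 3.46 for Ilp5, 3.13 for Ilp3 and 2.91 for Ilp7, with InR at 4.07 CPM per kilobase. Before scaling, Ilp7 had between 8 and 150 reads in a library, Ilp3 between 4 and 110, and Ilp5 between 5 and 61, so single libraries were imprecise for these 3 genes. By a later annotation (BDGP6), Ilp2 and Ilp3 lie inside the gene CG32052, Ilp5 inside CG43897 and Ilp6 inside Raf, each with no exon base shared. Ilp7 shares 9 of 1044 exon bases with Parg on the opposite strand, chico shares 380 of 3578 with an antisense RNA gene, and ImpL2 shares 1651 of 2667 with CG46460 on the same strand. The library kit did not keep strand, so the counts of chico and ImpL2 may include reads of these neighbours or lack reads that both genes could claim.

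The first comparison asked which of these genes differed between mated and virgin females. Ilp7 was the only 1 of the 10 called as changed with mating: its transcript fell to 0.586 of the virgin level averaged over the 5 lines. In Beijing females the 3 virgin libraries had 6.2, 4.36 and 7.44 CPM, and the 15 mated libraries ran from 1.83 through a median of 3.78 to 7.19 CPM. In Ithaca females the virgins had 4.42, 3.54 and 4.69 CPM and the 14 mated libraries ran from 0.913 through 1.77 to 3.24 CPM. In Ithaca, therefore, every mated library lay below every virgin library, which held for 0.697% of all genes tested in that line. In Netherlands females the virgins had 2.95, 1.75 and 2.62 CPM against 0.567, 1.47 and 2.68 CPM as the lowest, median and highest of 15 mated libraries. In Tasmania females the virgins had 3.94, 6.40 and 4.99 CPM, and the mated libraries ran from 1.27 through 2.71 to 7.44 CPM. In Zimbabwe females the virgins had 4.94, 4.27 and 5.29 CPM, and the mated libraries ran from 1.38 through 2.39 to 5.26 CPM. Outside Ithaca the groups overlapped, with 9 to 12 of 15 mated libraries below all virgins of their line.

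Over all lines, 56 of the 74 mated libraries had less Ilp7 than any virgin of their line, and 1 had more, Tasmania x Netherlands replicate 3 at 7.44 CPM. Among all genes tested, 0.125% had at least as many mated libraries below the virgins. The mean of each of the 25 crosses was below the mean of the virgins of the female line, as for 0.224% of genes. Cross means ran from 1.16 ± 0.516 CPM (SD, n = 3) in Netherlands x Beijing to 5.71 ± 2.14 CPM (SD, n = 3) in Beijing x Netherlands. In the model over all 89 libraries the fall was -0.77 ± 0.15 on the log2 scale (SE; 95% interval -1.06 to -0.48), with an adjusted p of 0.000239 by edgeR's quasi-likelihood test. Mated libraries of a line that share a replicate number may not be independent, and the model had no term for that. The SE and p may thus be too small and the interval too narrow, and the 74 mated libraries may not be 74 independent observations. Of all genes tested, 5.63% were called in this comparison and 1.47% were called as lower, and Ilp7 was 16th by p among the genes that fell. In whole females, fewer cells that express a gene and less RNA per cell cannot be told apart. The summed level of 8 neuronal markers was 160 to 463 CPM in virgins (median 227) and 57.4 to 393 CPM in mated libraries (median 225). Parg, the neighbour that shares exon bases with Ilp7, changed by -0.015 ± 0.063 (SE) on the log2 scale, with an adjusted p of 1.

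**Figure D1:**
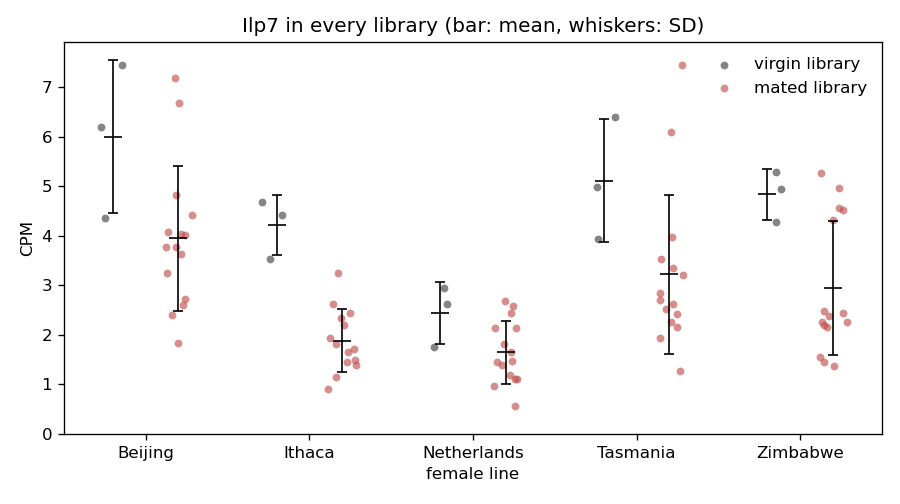
Ilp7 transcript level in CPM (vertical axis) in each library, by female line (horizontal axis), with virgin libraries in grey and mated libraries in red; the bar is the mean and the whiskers are 1 SD. In Ithaca females the mated libraries, 0.913 to 3.24 CPM, lie below the virgins, 3.54 to 4.69 CPM, and in the other lines the groups overlap.

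Within single lines the log2 change of Ilp7 was -0.65 ± 0.32 (SE) in Beijing, -1.18 ± 0.33 in Ithaca, -0.61 ± 0.35 in Netherlands, -0.72 ± 0.32 in Tasmania and -0.70 ± 0.33 in Zimbabwe females. None of these passed the threshold alone. The smallest adjusted p was 0.101, in Ithaca. None of the other 9 genes was called within a line either, where 0.0249% of all genes were called in Beijing, 0.174% in Ithaca, 0.125% in Netherlands, 0.822% in Tasmania and 0.083% in Zimbabwe females. At an unadjusted p under 0.05 edgeR's quasi-likelihood test had 1, 4, 0, 1 and 1 of the 10 genes in these lines, beside 276, 1043, 726, 1048 and 679 of all genes, and DESeq2 called 0 of the 10 in each line beside 10, 97, 50, 185 and 70 of all genes. The fitted change was below 0 in all 5 lines for Ilp7 and also for foxo, which was not called, as for 7.07% of genes. The test of whether the change differed between lines gave an adjusted p of 1 for Ilp7, in a comparison that called 0.0664% of genes, and none of the 10 genes had an unadjusted p under 0.05 there (414 of all genes did).

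The mated Zimbabwe libraries separated by replicate number for Ilp7. In the 5 libraries of replicate 3, 1 per cross, Ilp7 was at 4.31 to 5.26 CPM, within the range of the Zimbabwe virgins. In the 10 libraries of replicates 1 and 2 it was at 1.38 to 2.49 CPM, below every virgin. Ilp8, a relaxin-like peptide that is not among the 10 genes, also separated by replicate number, at 108 to 165 CPM in replicate 3 and 24.5 to 80.5 CPM in the others. The 3 Zimbabwe virgins had 92.6, 95.4 and 99.3 CPM of Ilp8, so replicate 3 lay above all virgins and the others below. Of all genes tested, 5.99% separated replicate 3 from the other mated Zimbabwe libraries. Such separation was not limited to Zimbabwe: 5.52% of genes separated replicate 2 in mated Ithaca libraries and 4.97% replicate 3 in Tasmania. The remaining replicate numbers of the 5 lines had 0.0249% to 1.89%. Summed markers of muscle also separated Zimbabwe replicate 3, at 3790 to 5590 CPM against 8550 to 20200 CPM in the rest. The 3 Zimbabwe virgins had 7290, 10200 and 9430 CPM. Summed markers of follicle cells and eggshell overlapped, at 4450 to 11100 CPM in replicate 3 (median 5600). They were at 12800 to 27500 CPM in replicate 1 (median 17600) and 6610 to 23600 CPM in replicate 2 (median 7920). For these the 3 virgins had 6330, 6910 and 4290 CPM. The length slope was 0.0735 to 0.130 in replicate 3 and -0.181 to 0.0987 in the others. The part of muscle, eggshell or length slope in the Ilp7 values was not tested. Without replicate 3 of every group, the Zimbabwe change was -1.17 and the mean over lines stayed between -0.82 and -0.73 whichever replicate number or virgin library was left out. No other gene of the 10 separated the mated libraries of a line by replicate number.

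The other peptide genes showed no change that passed the test. Ilp2, the most abundant of the 3 peptides made in the insulin-producing cells, changed by -0.073 ± 0.10 (SE) on the log2 scale, with a 95% interval of -0.28 to 0.13. Its virgin libraries ran from 3.03 through 5.71 to 11.1 CPM and its mated libraries from 2.04 through 5.00 to 8.97 CPM. Ilp3 changed by -0.016 ± 0.15, with an interval of -0.32 to 0.29, and Ilp5 by -0.029 ± 0.14, with an interval of -0.32 to 0.26. Ilp6 was the only gene of the 10 with a value above 0, at 0.051 ± 0.080 and an interval of -0.11 to 0.21.

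The receptor and its downstream genes were also below the threshold. InR changed by -0.19 ± 0.15 (SE) on the log2 scale, foxo by -0.13 ± 0.09, chico by -0.065 ± 0.058 and Thor by -0.13 ± 0.11. ImpL2 changed by -0.19 ± 0.08, with a 95% interval of -0.363 to -0.0233. Its adjusted p was 0.221 by edgeR's quasi-likelihood test (0.0267 unadjusted). Taking unadjusted p under 0.05, 2 of the 10 genes (Ilp7 and ImpL2) stood beside 1935 of all 12045 genes. The fitted change was below 0 in 9 of the 10 genes and in 48.1% of all genes. The median change was -0.099 over the 10 genes and 0.0063 over all genes.

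In Ithaca females 3 genes other than Ilp7 had 12 of 14 mated libraries beyond all virgins, with overlapping groups and no call. ImpL2 was at 140, 164 and 244 CPM in the 3 Ithaca virgins and ran from 90.0 through 126 to 179 CPM in the 14 mated libraries, 12 of which were below all virgins (4.99% of all genes had at least as many). Its log2 change in Ithaca was -0.57 ± 0.19 (SE), with an adjusted p of 0.242 by edgeR's test. Ilp5 was at 1.77, 2.50 and 3.35 CPM in the Ithaca virgins and ran from 0.551 to 1.95 CPM in mated libraries, 12 of 14 below all virgins, with an adjusted p of 0.354. Ilp6 went the other way, from 12.2, 15 and 16.4 CPM in virgins to between 14.2 and 27.1 CPM in mated libraries, 12 of 14 above all virgins (4.13% of all genes had at least as many), with an adjusted p of 0.368. Differences between lines in the response to mating had an adjusted p of 1 for all 10 genes, and unadjusted values of 0.0602 for Ilp5, 0.0904 for Ilp6 and 0.258 for ImpL2.

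**Figure D2:**
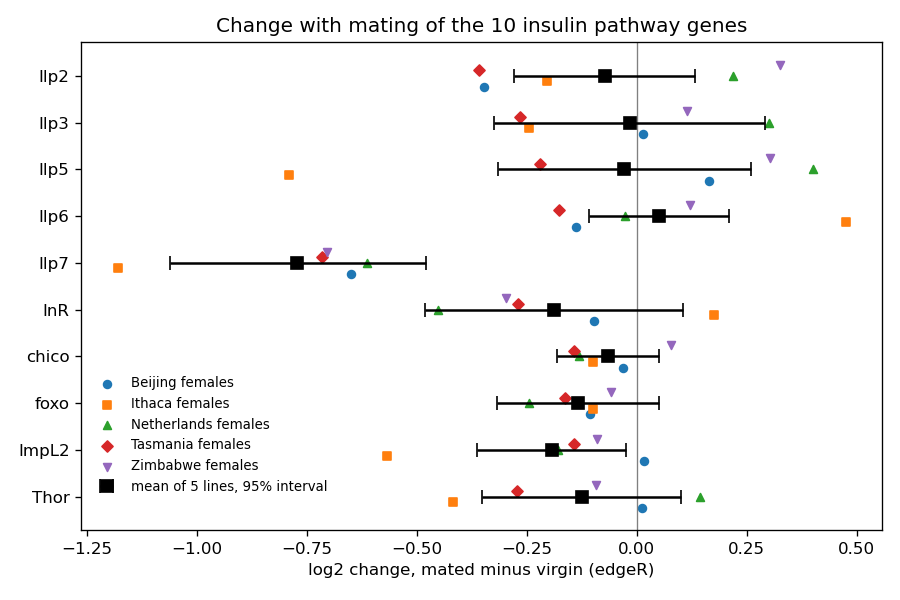
Change with mating on the log2 scale (horizontal axis, mated minus virgin) of the 10 genes (vertical axis); squares in black are means over 5 female lines with 95% intervals, and coloured symbols are the changes within each line. The interval of Ilp7, -1.06 to -0.48, lies farthest from 0, and its change is below 0 in each line, as is that of foxo.

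Other genes of the pathway were counted in lists by role. Of 12 genes that carry the signal from the receptor to Akt, 0 were called with mating, and their median log2 change was -0.030. None was called among 8 genes of the Ras and MAP kinase arm (median -0.044), 20 genes of the TOR complexes and growth control (median -0.0097) or 6 genes known to respond to Foxo (median 0.19). Unadjusted, edgeR's quasi-likelihood test had p under 0.05 for 1, 0, 1 and 3 genes of these 4 lists, and DESeq2 called 0, 0, 1 and 0, beside 1935 of all 12045 genes under 0.05 and 875 called by DESeq2. Of 19 genes that act on the insulin-producing cells, 1 was called, Oamb (median of the list -0.089). Oamb, an octopamine receptor also known for its role in ovulation, fell by 0.34 ± 0.11 (SE) on the log2 scale, with an adjusted p of 0.0493. Its call was at the edge of the threshold: the adjusted p ran from 0.0163 to 0.299 over 26 alternatives and was under 0.05 in 8 of them. Of 5 tested genes among the other insulin-like peptides and binding partners, 0 were called by edgeR or DESeq2, and 1 had an unadjusted p under 0.05 by edgeR's test. Within that list Ilp8 changed by -0.51 ± 0.17 (SE), with an adjusted p of 0.0688, and Ilp1 was too low to test, with at most 8 reads in a library.

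The next comparison asked how the 5 female lines differed. Among virgins, 4 of the 10 genes differed between lines (Ilp2, Ilp3, Ilp6 and ImpL2), where 27.5% of all genes were called. Among mated females, 7 of the 10 differed (Ilp2, Ilp3, Ilp6, Ilp7, InR, ImpL2 and Thor), where 70.1% of all genes were called. With 74 libraries the second test had far more libraries than the first, which had 15. Mated libraries of a line that share a replicate number may not be independent. For example, 5.99% of genes separated replicate 3 in mated Zimbabwe libraries and 5.52% replicate 2 in Ithaca. The model had no term for replicate number within a line, so p-values between mated lines may be too small. The count among mated females is close to the share of all genes, so the genes are described for their own levels. Pairs of lines were also compared. Against Beijing, 12.3% of all genes were called in Ithaca virgins, 9.17% in Netherlands, 8.61% in Tasmania and 8.9% in Zimbabwe virgins, and 43.1%, 36.8%, 34.2% and 36.1% in mated females of the same lines. Against Ithaca the shares were 9.65% in Netherlands, 10.9% in Tasmania and 9.04% in Zimbabwe virgins, and 38.2%, 38.2% and 37.8% in mated females. Against Netherlands, 11.9% were called in Tasmania and 6.08% in Zimbabwe virgins, and 30.5% and 29.9% in mated females. Between Tasmania and Zimbabwe, 8.04% were called in virgins and 32.1% in mated females.

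Ilp3 had the largest log2 differences between lines among the 10 genes, with the Netherlands line at the bottom. The 3 Netherlands virgins had 0.956, 0.520 and 0.872 CPM, from 11, 8 and 10 reads. The lowest virgin of any other line, a Zimbabwe library, had 1.67 CPM, so the Netherlands virgins were below all 12 others, which held for 1.76% of all genes. Mean levels in virgins were 0.783 ± 0.232 CPM (SD, n = 3) in Netherlands, 1.91 ± 0.236 in Zimbabwe, 2.76 ± 0.751 in Beijing, 3.07 ± 0.913 in Ithaca and 3.63 ± 1.12 in Tasmania. Virgin differences by edgeR's test reached adjusted p of 0.00382 against Beijing, 0.00192 against Ithaca and 0.000344 against Tasmania. The first was lost without replicate 3 (0.0849) and without Netherlands virgin replicate 2 (0.0622), and the second without replicate 3 (0.0613). The difference between Zimbabwe and Netherlands virgins did not pass the test.

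Ilp3 was also low in mated Netherlands females. Their 15 libraries ran from 0.275 through a median of 0.752 to 4.60 CPM. The top value was that of the library labelled Netherlands x Ithaca replicate 2, which was estimated to hold mostly Ithaca-like transcripts. Without the 2 Netherlands libraries with more than 10% of other-line transcripts, the remaining 13 ran from 0.275 to 1.23 CPM, and the lowest mated library of the other lines was at 0.825 CPM in Zimbabwe. Mated medians were 2.11 CPM in Zimbabwe, 2.65 in Tasmania, 2.71 in Ithaca and 2.77 in Beijing. Netherlands was lower than each of the other lines, with log2 differences of -1.53 ± 0.20 (SE) from Beijing and -1.43 ± 0.21 from Ithaca, and it was exceeded by Tasmania by 1.65 ± 0.20 and by Zimbabwe by 1.12 ± 0.21. The largest of these 4 adjusted p-values by edgeR's test was 1.04e-05, and each difference passed in all 27 alternatives. In the same females Ilp2, a gene next to Ilp3 on chromosome arm 3L, was at a median of 5.38 CPM, above the mated medians of Beijing, Ithaca and Zimbabwe.

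Ilp2 was highest in Tasmania and lowest in Zimbabwe virgins. The Tasmania virgins had a mean of 8.42 ± 2.45 CPM (SD, n = 3; range 6.38 to 11.1) and the Zimbabwe virgins 3.46 ± 0.658 CPM (range 3.03 to 4.21), and these ranges do not overlap, as for 13.8% of all genes. The log2 difference was -1.28 ± 0.30 (SE), with an adjusted p of 0.00247 by edgeR's test, and it was lost without replicate number 1 (0.0612) or 2 (0.121). Ithaca, Beijing and Netherlands virgins, at 5.83 ± 2.37, 5.55 ± 1.02 and 4.94 ± 1.86 CPM, lay between, and no pair among these 3 passed the test. The test over all virgin lines (adjusted p = 0.0103) depended on Tasmania virgin replicate 2, at 11.1 CPM: without it the adjusted p was 0.101. In mated females the order was Tasmania (mean 6.57 ± 1.42 CPM, SD, n = 15), Netherlands (5.85 ± 1.60), Ithaca (5.11 ± 0.824, n = 14), Beijing (4.44 ± 1.38) and Zimbabwe (4.34 ± 0.907). Neighbours in this order did not differ by the test, while Tasmania was above Ithaca, Beijing and Zimbabwe and Netherlands was above Beijing and Zimbabwe. The step from Tasmania to Ithaca was lost in 4 alternatives, among them leaving out the libraries with male transcripts (adjusted p = 0.0902). Netherlands against Beijing was lost without replicate 1 (0.113) or 2 (0.115), and Netherlands against Zimbabwe without replicate 2 (0.239) or 3 (0.0603) and without the 6 libraries of lowest length slope (0.0825).

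Ilp5 showed no difference between lines that passed the test. Its mean level lay between 1.19 and 2.54 CPM in virgins and between 1.46 and 1.88 CPM in mated females. The tests between lines gave adjusted p-values of 0.263 among virgins and 0.425 among mated females. The widest virgin pair was Netherlands at 0.472 of Ithaca, -1.08 ± 0.42 (SE) on the log2 scale, with an adjusted p of 0.0951. The virgin test passed without Netherlands virgin replicate 1, the library with 10.7 CPM of testis markers (adjusted p = 0.0283).

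Ilp6 was high in Beijing and Tasmania and low in Zimbabwe females. Virgin means were 26.5 ± 2.03 CPM (SD, n = 3) in Beijing and 27.8 ± 7.29 in Tasmania, against 18.1 ± 7.48 in Netherlands, 15.6 ± 2.36 in Zimbabwe and 14.5 ± 2.09 in Ithaca. All 6 virgins of Beijing and Tasmania, at 19.4 CPM or more, lay above all virgins of Ithaca and Zimbabwe, at 17.6 CPM or less, as for 1.81% of all genes. The log2 difference from Beijing was -0.86 ± 0.23 (SE) for Ithaca and -0.77 ± 0.23 for Zimbabwe, with adjusted p-values of 0.00608 and 0.0218 by edgeR's test. The first was called in 23 of 26 alternatives (lost without replicate number 1 or 3 and without Ithaca virgin replicate 3) and the second in 19, with adjusted p up to 0.134 and 0.156, and no replicate number could be left out without losing the second. In mated females the order was Tasmania (24.8 ± 5.54 CPM, SD, n = 15), Beijing (24.1 ± 2.86), Ithaca (20.4 ± 3.70), Netherlands (17.8 ± 3.60) and Zimbabwe (17.0 ± 2.97). Tasmania and Beijing did not differ by the test, nor did Ithaca and Netherlands or Netherlands and Zimbabwe. Ithaca was below Tasmania with an adjusted p of 0.0262 by edgeR's test. Its differences from Beijing (adjusted p = 0.0478) and Zimbabwe (0.0485) were at the edge of the threshold. The cross Tasmania x Tasmania had the highest mean, 31.4 ± 4.71 CPM. Raf, inside which Ilp6 lies, is listed in the table as phl and also differed between lines, with adjusted p-values of 0.0396 among virgins and 0.0475 among mated females. Those calls held in 14 of 25 and 11 of 26 alternatives, with adjusted p up to 0.219 and 0.431.

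**Figure D3:**
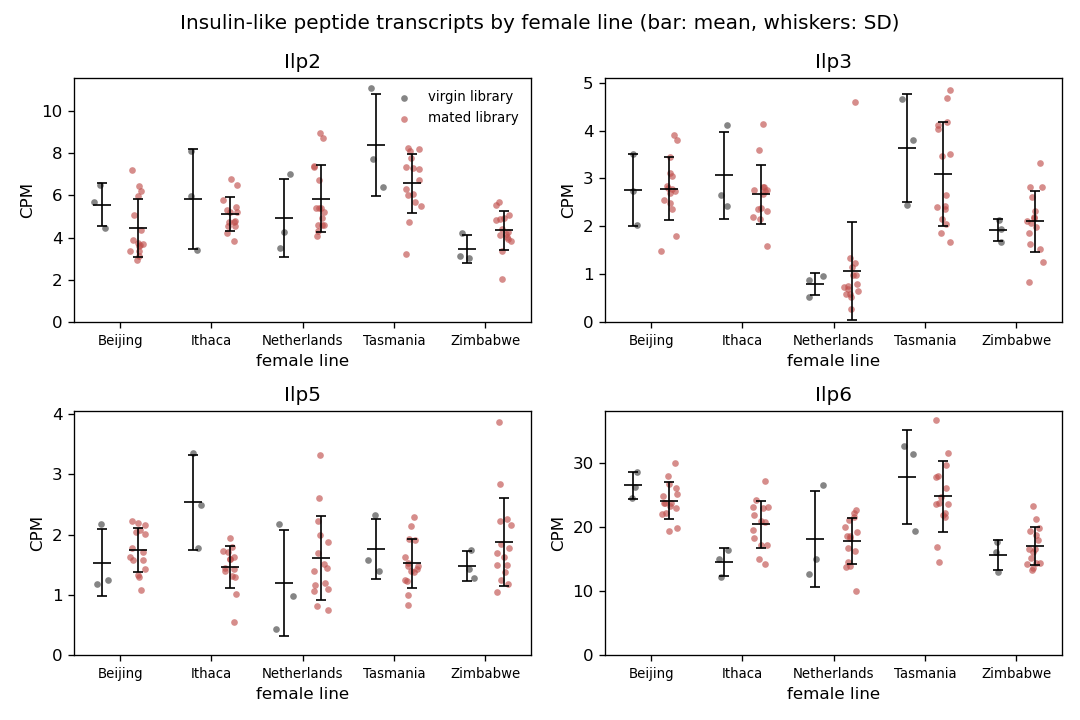
Levels of Ilp2, Ilp3, Ilp5 and Ilp6 in CPM (vertical axes) by female line (horizontal axes), with virgin libraries in grey and mated libraries in red; the bar is the mean and the whiskers are 1 SD. The Netherlands virgins have 0.520 to 0.956 CPM of Ilp3, below the virgins of the other lines. The single high mated Netherlands library, at 4.60 CPM, was estimated to hold mostly Ithaca-like transcripts.

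Ilp7 differed between lines among mated females (adjusted p = 3.65e-07 by edgeR's test). Among virgins, with 3 libraries a line, it did not pass (adjusted p = 0.174). Mated means were 3.95 ± 1.46 CPM (SD, n = 15) in Beijing, 3.22 ± 1.61 in Tasmania, 2.95 ± 1.36 in Zimbabwe, 1.89 ± 0.630 in Ithaca (n = 14) and 1.65 ± 0.633 in Netherlands. Netherlands was below Beijing by 1.26 ± 0.21 (SE) on the log2 scale and Ithaca was below Beijing by 1.04 ± 0.21, with adjusted p-values of 7.4e-07 and 3.4e-05. Beijing, Tasmania and Zimbabwe did not differ from each other by the test, and neither did Ithaca and Netherlands. Zimbabwe's place rested on replicate 3: without it, the log2 difference from Netherlands was 0.14 (adjusted p = 0.822) in place of 0.90, and that from Ithaca was 0.18 (adjusted p = 0.688) in place of 0.68. Virgin means had Netherlands lowest too, at 2.44 ± 0.620 CPM, and Beijing highest, at 6.00 ± 1.55 CPM.

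ImpL2 was highest in Ithaca females. The 3 Ithaca virgins had 140, 164 and 244 CPM, and the virgin means of the other lines lay between 85.6 and 100 CPM. The ranges overlapped, since 1 Netherlands virgin reached 146 CPM. Ithaca virgins were higher than those of each other line, by 0.86 to 1.09 on the log2 scale, with adjusted p-values from 0.00143 to 0.0133 by edgeR's test. The difference over all virgin lines (adjusted p = 0.00133) was lost without Ithaca virgin replicate 2 (0.131) and without replicate number 2 (0.124) or 3 (0.0741). Among mated females the order was Ithaca (125 ± 23.4 CPM, SD, n = 14), Beijing (100 ± 20.8, n = 15), Tasmania (91.8 ± 20.6), Netherlands (87.6 ± 16.6) and Zimbabwe (80.4 ± 7.86). Ithaca was above each of the others, and Zimbabwe was below Beijing as well, by 0.32 ± 0.11 (SE) on the log2 scale (adjusted p = 0.0200). Ithaca against Beijing (adjusted p = 0.0256) was lost without replicate 2 (0.127) or 3 (0.252), without libraries with male or other-line transcripts (0.0749) and without the 6 of lowest length slope (0.0653), and Zimbabwe against Beijing without replicate 1 (0.222) or 3 (0.238). The mated test (adjusted p = 2.81e-05) did not pass without replicate 3 (0.0679).

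InR was highest in mated Beijing females. Beijing had a mean of 59.2 ± 20.2 CPM (SD, n = 15), Ithaca 49.8 ± 16.4 (n = 14), Zimbabwe 42.3 ± 12.4, Netherlands 39.3 ± 16.0 and Tasmania 36.6 ± 12.1 CPM. Beijing was above Tasmania by 0.68 ± 0.19 (SE) and above Netherlands by 0.60 ± 0.19 on the log2 scale, with adjusted p-values of 0.00401 and 0.0108 by edgeR's test, both lost without replicate 1 (0.244 and 0.112). Single libraries ranged from 16.4 to 89 CPM, and the groups of all lines overlapped. The overall call (adjusted p = 0.00838) was lost without replicate 1 (0.304). With the length slope as a covariate the adjusted p by edgeR's test was 3.6e-07, in a fit that called 81.5% of genes. In virgins, InR lay between 21.4 and 79.4 CPM and did not pass (adjusted p = 0.910).

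The adaptor gene chico was the most even of the 10. Its level ran from 28.3 to 59.3 CPM over all 89 libraries, with a coefficient of variation of 14.2%, against 52.8% for Ilp7. Line means lay between 42.5 and 47.2 CPM in virgins and between 42.7 and 45.9 CPM in mated females, with adjusted p-values between lines of 0.988 and 0.583. The transcription factor gene foxo had line means of 88.8 to 111 CPM in mated females and did not pass (adjusted p = 0.0953), but it did in 4 alternatives, 1 of which took the length slope as a covariate (adjusted p = 0.000372).

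Thor, a target of Foxo, showed no difference between virgin lines (adjusted p = 1), with means of 319 to 355 CPM. In mated females it was lower in Ithaca (267 ± 61.9 CPM, SD, n = 14) and Tasmania (274 ± 126, n = 15) than in Beijing (361 ± 92.4) and Netherlands (355 ± 90.6), with Zimbabwe (318 ± 53.5) between. The overall adjusted p was 0.00856 by edgeR's test, and was 0.0734 without replicate 3 and 0.0627 without libraries holding male or other-line transcripts. Mated Tasmania libraries alone ranged from 118 to 517 CPM. The difference between Tasmania and Beijing, -0.41 ± 0.15 (SE) on the log2 scale, was -0.072 without replicate 3.

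**Figure D4:**
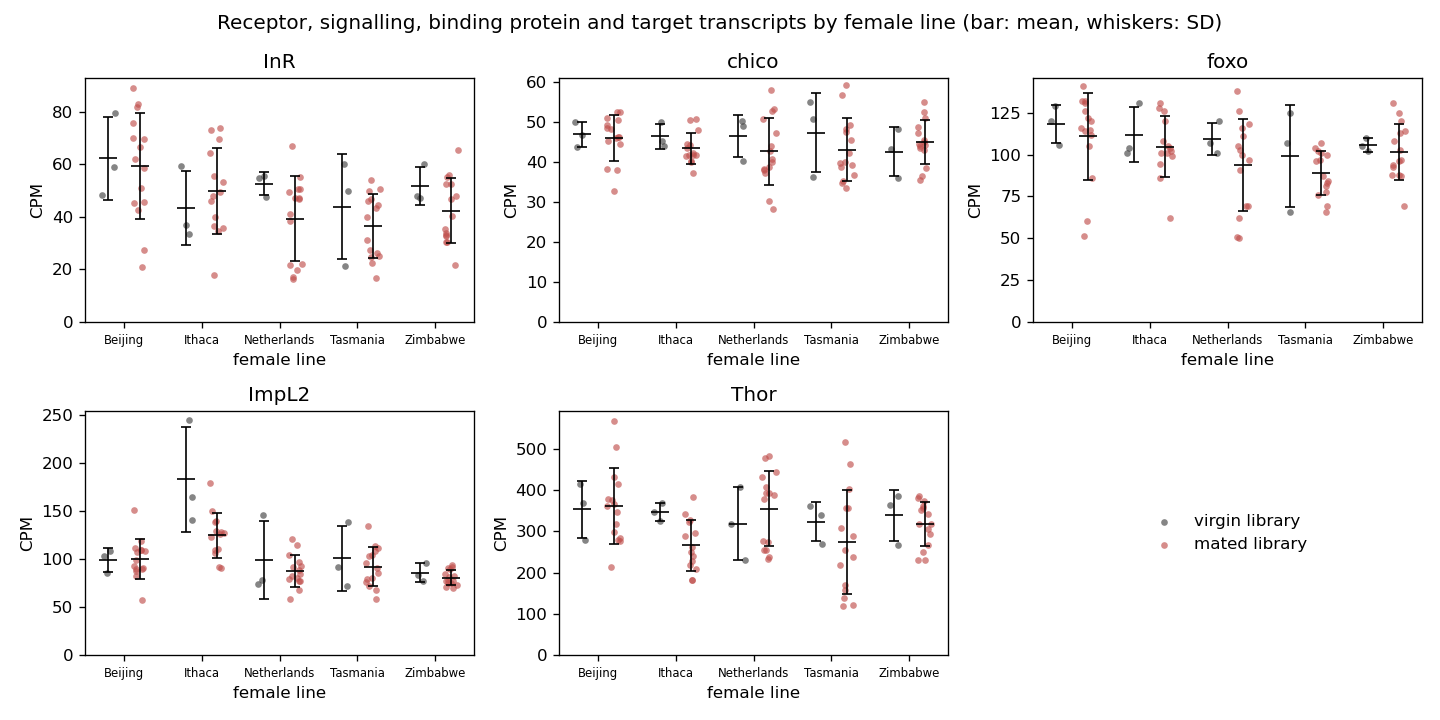
Levels of InR, chico, foxo, ImpL2 and Thor in CPM (vertical axes) by female line (horizontal axes), with virgin libraries in grey and mated libraries in red; the bar is the mean and the whiskers are 1 SD. Ithaca females have the most ImpL2, with virgins at 140 to 244 CPM, and chico stays between 28.3 and 59.3 CPM in all libraries.

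The pathway lists were counted between lines as well. Among mated females the calls were 6 of 12 genes from the receptor to Akt, 3 of 8 in the Ras and MAP kinase arm, 12 of 20 for TOR and growth control, 6 of 6 Foxo-responsive genes, 17 of 19 genes acting on the insulin-producing cells and 4 of 5 other peptides and binding partners, where 70.1% of all genes were called. Among virgins the same lists had 1, 1, 3, 3, 7 and 2 calls, where 27.5% of all genes were called. Several counts moved with the libraries: among mated females TOR and growth control had 7 calls without replicate 1, the insulin-producing cell list 11 without replicate 3, and the Ras and MAP kinase arm 1 without either. Among virgins, TOR and growth control ran from 1 to 8 calls over the alternatives, the insulin-producing cell list from 3 to 9, the genes from the receptor to Akt from 0 to 4 and the Ras and MAP kinase arm from 0 to 1. A wide contrast in level was that of tobi, an alpha-glucosidase gene known as a target of brain insulin and adipokinetic hormone. Its mated mean was 944 ± 297 CPM (SD, n = 15) in Beijing and 84.4 ± 88.7 CPM in Zimbabwe, and its virgin means were 1250 ± 556 CPM (n = 3) and 109 ± 31.2 CPM.

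Among genes that act on the insulin-producing cells, CCHa2, a peptide from fat body and gut that promotes Ilp release, was lowest in Netherlands. It was at 23.9 ± 8.92 CPM (SD, n = 15) in mated Netherlands females and at mean levels of 38.3 to 58.1 CPM in the other lines, with an adjusted p of 1.86e-13 by edgeR's test. In virgins it was at 20.2 ± 9.28 CPM in Netherlands and 40.5 to 68.5 CPM elsewhere. Tk, the gene of the tachykinin peptides, was lowest in Beijing, at 5.86 ± 1.04 CPM in mated females against 10.6 to 14.8 CPM in the other lines. egr, the tumour necrosis factor of the fly, ran from 20 ± 3.12 CPM in mated Netherlands females to 29.6 ± 3.28 in Beijing.

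In the list of binding partners, Sdr, which is listed in the table as CG3837 and encodes a secreted decoy of the insulin receptor, was highest in Zimbabwe. Its mated mean was 18.5 ± 3.32 CPM (SD, n = 15) there and 10.3 to 11.8 CPM in the other lines, and the 3 Zimbabwe virgins, at 19.6 to 20.8 CPM, lay above the virgin means of the others, 9.22 to 13.1 CPM. Lgr3, the receptor of Ilp8, was at 0.196 ± 0.187 CPM in mated Beijing and 1.62 ± 0.439 CPM in mated Netherlands females. Downstream of the receptor, melt, which encodes a binding partner of the Tsc complex and Foxo, was highest in Beijing (17.7 ± 4.75 CPM in mated females) and at means of 9.01 to 11.1 CPM in the others. The amino acid transporter gene slif was highest in mated Zimbabwe females, at 177 ± 14 CPM, then Ithaca at 161 ± 14 CPM, and at 116 CPM in both Beijing and Tasmania. In virgins slif was highest in Ithaca, at 182 ± 8.65 CPM (SD, n = 3), with Zimbabwe at 144 ± 5 CPM. The other genes named by the rule (daw, sug, rl, drk, Lst8, chrb, Lnk, 14-3-3epsilon, conv, Lip4 and eIF-4E) had adjusted p-values from 5.59e-13 to 0.0462. The last was that of 14-3-3epsilon among virgins, which passed in 9 of 25 alternatives (adjusted p up to 0.679). Calls were also lost among virgins for Lst8 (20 of 25 passed), eIF-4E (21) and daw (23), and among mated females for drk (24 of 26).

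The third question was whether the line of the male mattered. For the mean over female lines, 0 of the 10 genes were called, where 0.0083% of all genes, a single gene, were. By unadjusted p, 1 gene of the 10 was under 0.05, Ilp2 at 0.0371 (adjusted p = 0.393). Its mean was 6.26 ± 1.42 CPM (SD) in females mated with Netherlands males, the highest, and 4.86 ± 1.26 CPM with Tasmania males, the lowest. None of the 10 was called for male line within Beijing, Ithaca, Netherlands, Tasmania or Zimbabwe females, where 0.0415%, 7.99%, 11.2%, 0.208% and 0% of all genes were. The shares for Ithaca and Netherlands rested on few libraries. The 1355 genes called in Netherlands became 41 without libraries with a testis sum over 10 CPM, 6 without those holding male or other-line transcripts, 2 without the 6 of lowest length slope, and 0 without replicate 2 or with Netherlands libraries alone. The 962 in Ithaca became 22 without the testis libraries, 5 without replicate 1 and 2 with Ithaca libraries alone. Unadjusted, edgeR's quasi-likelihood test had p under 0.05 for 0, 0, 1, 0 and 0 of the 10, and for 491, 1681, 2812, 613 and 135 of all genes. For female line by male line, 0 of 10 were called against 3.53% of all genes (425, and 1 without replicate 1 or 2), and each adjusted p was 1. None of the 10 had an unadjusted p under 0.05 there, as 1189 of all genes did. Mating with a male of the same line against males of the other lines gave 0 calls over all genes by edgeR's quasi-likelihood test, with 74 genes and none of the 10 at an unadjusted p under 0.05, and DESeq2 called 7 genes and none of the 10. The 10 log2 differences lay between -0.067 and 0.086. For Ilp7 that difference was 0.0091 ± 0.16 (SE), with an interval of -0.31 to 0.32. Within Netherlands females, InR and foxo were called for male line when the length slope was a covariate (adjusted p = 0.00814 and 0.00549), in a fit that called 16.3% of genes.

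Among libraries of the same group, several of the genes varied together, and they did so along the length slope. These correlations are descriptions over 89 deviations from group means, which share libraries, depth and scaling. The receptor and foxo had a correlation of 0.94 with each other, the 60th highest of 12044 genes for InR. Their correlations with the length slope were 0.87 and 0.89, against a median of -0.18 over all genes. chico had a correlation of 0.68 with foxo and 0.55 with the slope. The peptides of the insulin-producing cells went the other way, with correlations with the slope of -0.59 for Ilp2, -0.73 for Ilp3 and -0.59 for Ilp5. Of all genes, 17.1%, 9.49% and 17.3% had a lower correlation with the slope than these 3. Among themselves they had correlations of 0.63 (Ilp2 with Ilp5), 0.49 (Ilp2 with Ilp3) and 0.45 (Ilp3 with Ilp5). By rank among 12044 genes, Ilp5 was 325th and Ilp3 1629th for Ilp2. Ilp5 was 2101st for Ilp3, and Ilp2 was 89th and Ilp3 1648th for Ilp5. With InR these peptides had correlations of -0.61, -0.59 and -0.65. These peptide transcripts have 478 to 751 exon bases, and those of InR and foxo have 11367 and 4130. Thor, with 755 exon bases, had a correlation of -0.30 with the slope. Ilp6 and ImpL2, with 2413 and 2667 exon bases, had 0.26 and 0.33. The slope was itself computed from expression and exon length in these libraries, so a relation to length is partly built in. The part of exon length in these correlations was not tested.

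**Figure D5:**
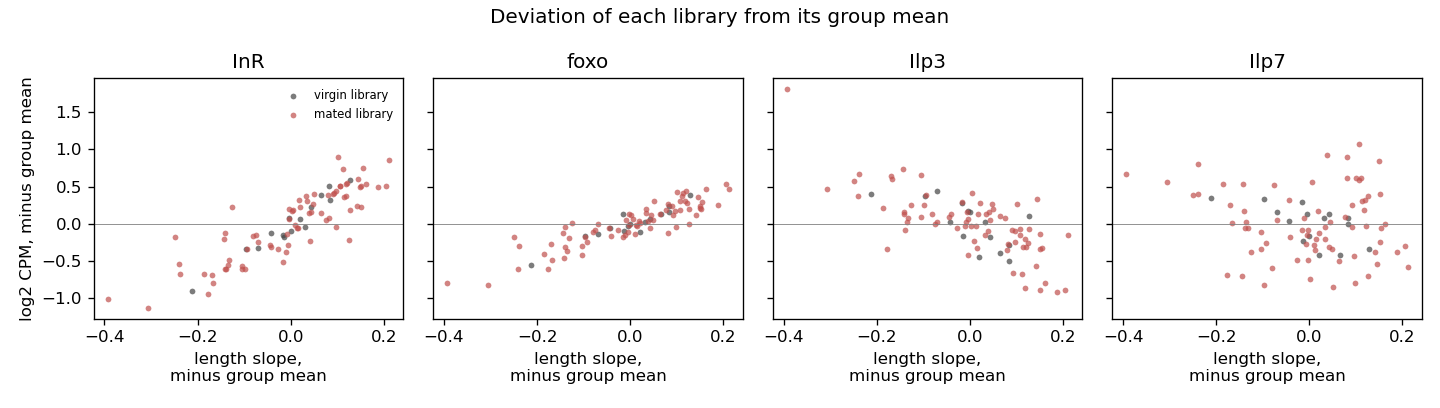
Deviation of each library from its group mean in log2 CPM (vertical axes) against the deviation of its length slope (horizontal axes) for InR, foxo, Ilp3 and Ilp7, with virgin libraries in grey and mated libraries in red. InR and foxo rise with the slope (correlations 0.87 and 0.89), Ilp3 falls with it (-0.73), and Ilp7 has a correlation of -0.16.

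Ilp7 did not follow the length slope in this way, with a correlation of -0.16 that lay near the median of all genes. With the slope as a covariate its change with mating was -0.79 ± 0.15 (SE), with an adjusted p of 7.9e-05 by edgeR's test. The same covariate brought the change of InR with mating from -0.19 ± 0.15 to -0.075 ± 0.077 and that of foxo from -0.13 ± 0.09 to -0.062 ± 0.044, and neither passed. Mated Netherlands libraries held the lowest slope, -0.508 in the library labelled Netherlands x Ithaca replicate 2, and had a mean of -0.0473 ± 0.201 (SD, n = 15), while the Netherlands virgins had a mean of 0.0919 ± 0.0182 (n = 3). Whether the slope reflects RNA quality, library making or the flies was not tested.

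Over the 30 group means, the genes most like each of the 10 were found among 9145 other genes of sufficient level, by Pearson correlation. Points of this kind share libraries within a group and the scaling between groups. For InR they were Lk6, mbc and CG43658 (0.94, 0.93 and 0.93), and for foxo Pde11, ClC-c and HDAC4 (0.93, 0.93 and 0.92). Ilp3 was most like CG6045, Ser6 and CG9903 (0.92, 0.92 and 0.90), and Ilp2 most like CG32039, Cyp6t1 and CG13603 (0.85, 0.83 and 0.81). For Ilp6 the closest were Dhc93AB, Ets21C and Socs36E (0.87, 0.84 and 0.84), and for Ilp7 they were CG13102, CG1887 and Ugt86Dj (0.82, 0.82 and 0.81). Likeness was lower for Thor (CG33307 at 0.81), chico (syd at 0.74) and Ilp5 (CG31710 at 0.69), and ImpL2 was most like Dgp-1 (0.88).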

How the data were processed

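The deposited table holds raw read counts per gene, not normalized, for 89 of 90 labelled libraries; Ithaca x Zimbabwe replicate 2 was not analysed here. Per the labels' protocols, libraries were made with the TruSeq RNA v2 kit and read as single 100-base reads. FastQC, Trimmomatic, TopHat2, HTSeq and the build dm3 are named in the submitters' processing notes; options are not given in the sources used here. The reference (BDGP6) differs in build and served for names, exon lengths and overlaps only. Of 14522 rows, 8 with a number in place of a symbol (at most 0.263% of counts) were left out.

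Counts were tested with edgeR 4.0.16 (R 4.3.3, limma 3.58.1): filterByExpr (12045 genes), TMM factors (0.740 to 1.10), 1 mean per group, robust quasi-likelihood, Benjamini-Hochberg adjustment over all genes, call at 0.05. SE is the absolute log2 change over the square root of F. Pairs of lines were tested in 10 contrasts each for virgins and mated females, with no adjustment over pairs. Replicates differed beyond counting error (chi-square per degree of freedom at least 12.2). DESeq2 1.42.0 served as an alternative, as did other scaling, no filter, a replicate block, a length-slope covariate and leaving out libraries. Transcripts of another line were estimated from genes at 5 CPM or more in its 3 virgins and 0.3 CPM or less in those of the female line. The code was tested on simulated counts. Named were the 10 genes in every comparison, up to 3 called genes per list by smallest p, and the 3 genes most like each of the 10; the Zimbabwe replicates, Ilp8 and Ilp1 were added once values were known. The 10 genes and the lists were chosen with earlier results of these data known. Of the list genes, susi could not be matched, and 19 of the 20 genes listed as acting on the insulin-producing cells were matched.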

Additional observations from a re-analysis of the deposited data

How the results depend on the processing

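Ilp7 was called as lower with mating in all 26 alternatives, with log2 changes from -0.85 to -0.73 and adjusted p from 2.16e-05 to 0.0136, while the number of genes called ran from 241 to 1234. The number of the 10 genes called between virgin lines was 4, and 2 to 5 when a replicate number or virgin library was left out (2 without replicate 2, which lost Ilp2 and ImpL2). Between mated lines it was 7, and 5 to 8 over the alternatives. For male line within Netherlands females it was 2 with the length slope as a covariate, and the cause was not tested. The change with mating of Ilp2, Ilp3, Ilp5 and Ilp6, none called, changed sign when libraries were left out: without libraries with a testis sum over 10 CPM it was 0.0083 for Ilp2 and 0.11 for Ilp5, and leaving out a replicate number or virgin library gave -0.17 to 0.0010 for Ilp2, -0.20 to 0.19 for Ilp3, -0.18 to 0.12 for Ilp5 and -0.022 to 0.16 for Ilp6. Scaling moved the median of all genes by under 0.01.

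Replicate numbers were not taken as pairing. Deviations of same-numbered libraries had a mean correlation of 0.0894, above 0.1 in 46.6% of 1276 pairs, against -0.0432 for different numbers. These pairs were taken over all female lines, so the value can miss a shift shared by the crosses of 1 line. In mated libraries, 5.99% of genes separated replicate 3 in Zimbabwe, 5.52% replicate 2 in Ithaca and 4.97% replicate 3 in Tasmania. Other replicate numbers had at most 1.89%. A replicate block common to all lines does not take up shifts that differ between lines. With the replicate block, Ilp7 changed by -0.78 (adjusted p = 0.000152), and 8 of the 10 genes were called between mated lines, foxo being added (adjusted p = 0.0377).

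Leaving out 8 libraries with male or other-line transcripts, or the 6 of lowest length slope, was chosen after seeing the data. A planned one, the libraries that an earlier account of the series counted as mixed, was not run, since its rule could not be recomputed from the counts. Low counts limit Ilp3, Ilp5 and Ilp7.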

Other observations

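Ilp4, which neighbours Ilp2 and Ilp3, was nearly silent: 30 of 89 libraries had 0 reads, and the median was 0.0789 CPM. The highest level, 5.01 CPM from 61 reads, was in Netherlands x Zimbabwe replicate 2, and the other replicates of that cross had 4 and 19 reads. The 3 Netherlands virgins had 1, 0 and 0 reads. Mated Netherlands libraries had a median of 0.267 CPM, against 0.146 CPM or less in the mated libraries of the other lines. The mean change with mating was 0.21 ± 0.88 (SE) on the log2 scale and did not pass edgeR's test (adjusted p = 1).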
